A study of Homo sapiens with 6 samples.

Results

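The ABC efflux transporters described here are 8 genes, ABCB1, ABCG2, ABCC1, ABCC2, ABCC3, ABCC4, ABCC5 and ABCC10. They were chosen by symbol, and all 8 had a row among the 17104 Ensembl genes of the deposited table. The study measured gene expression by RNA-seq in HBMEC, which the labels give as an endothelial line from the microvessels of human brain. One group of 3 libraries, titled OGD and numbered 1 to 3, is taken as cells after oxygen-glucose deprivation/reperfusion (OGD/R), a culture model that takes oxygen and glucose away and later restores them. The other group of 3 libraries, titled CON and numbered likewise, is taken as cells kept in normal culture. Both groups are the same line from total RNA, with no other treatment or genotype named in the labels. How long deprivation and reperfusion lasted is not stated in the labels. No label ties the libraries to separate cultures, and p-values therefore reflect only variation among these samples, possibly technical.

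ABC transporters are membrane proteins that use ATP to move substrates across membranes. At the blood-brain barrier, P-glycoprotein (ABCB1) and breast cancer resistance protein (ABCG2) sit in the luminal membrane of endothelial cells and return many drugs to the blood. The multidrug resistance-associated proteins (MRPs, the ABCC genes here) export organic anions, among them conjugates with glutathione, glucuronate or sulfate. ABCG2 works as a dimer, whereas ABCB1 and the MRPs carry both nucleotide-binding domains in one chain.

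Total counts were 31048662 to 34484647 per library. Levels are read counts relative to the TMM-scaled library size (CPM). A gene was called when its Benjamini-Hochberg adjusted p, from edgeR's quasi-likelihood fit of the whole table, was below 0.05. By this rule 19.7% of all genes changed, 1749 higher and 1621 lower after OGD/R, against 1383 higher and 2098 lower when total counts alone set the scale. The labelled cell type was checked against marker genes. Of 18 endothelial markers 7 had a row, and PECAM1, VWF, KDR, TEK, ERG and CLDN5 were not among them. Of 13 epithelial markers 9 had a row. The summed level of the epithelial markers was 3048 to 3104 CPM in OGD/R libraries and 2485 to 2711 CPM in control libraries. That of the endothelial markers was 289 to 301 CPM in OGD/R libraries and 282 to 298 CPM in control libraries. Keratins made up most of the epithelial sum. After OGD/R, KRT8 averaged 1555, KRT18 962 and KRT7 400 CPM, the next marker was EPCAM with 57.7, and CDH1 had 0.98. The median over the measured markers was 41.5 to 49.1 CPM per library for the epithelial and 9.47 to 21.3 CPM for the endothelial markers. The transporter values below therefore come from cells in which the labelled identity is only partly borne out by its markers. In bulk samples, fewer cells of a type and less RNA per cell cannot be told apart.

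Among the 8 transporters, ABCC3 fell after OGD/R and no other member passed the test. ABCC3, ABCC4, ABCC1 and ABCC5 held 91.3% ± 0.6 of the family's summed level per kb of the longest transcript in OGD/R libraries. In control libraries they held 92.3% ± 0.6 (SD, n = 3 each). ABCB1 and ABCG2, the transporters best known from the blood-brain barrier, together held 0.519% ± 0.102 in OGD/R libraries and 0.427% ± 0.168 in control libraries. In all, 1 of 8 members (12.5%) was called lower and 0 were called higher, in a table where 9.48% of genes were called lower, 10.2% higher and 19.7% in either direction. The median log2 fold change was −0.09 over the 8 members and 0.00 over all genes. Most members moved towards 0 once a smooth trend on transcript length and GC content was removed from each library. ABCC3 was then at −0.44, ABCB1 at −0.09, ABCC5 at −0.07, ABCC4 at −0.02 and ABCC10 at −0.01. ABCC1 was at 0.01, ABCG2 at 0.11 and ABCC2 at 0.15, with a median of −0.01 over all genes.

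**Figure D1:**
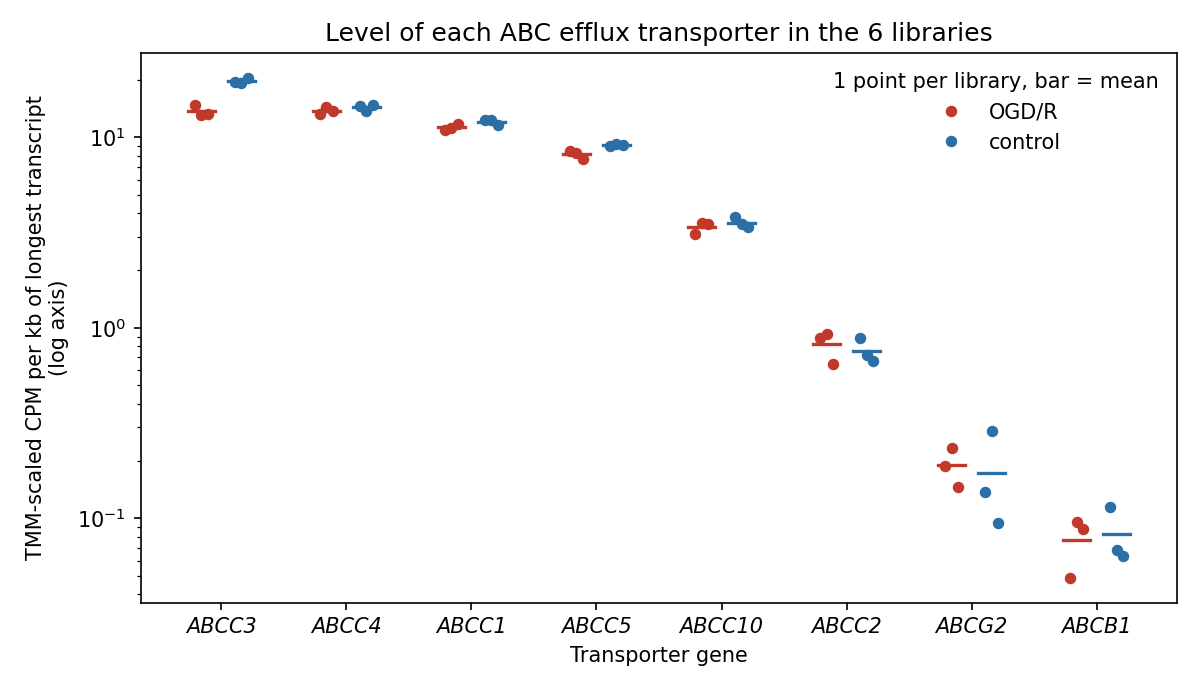
Level of each transporter gene in the 6 libraries, as TMM-scaled CPM per kb of the longest annotated transcript on a log axis, with 1 point per library and a bar at the mean of 3 libraries. ABCC3 is the gene whose points separate most clearly, and ABCG2 and ABCB1 lie at the bottom, with means under 0.2 CPM per kb in both groups.

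Sequence just upstream of the annotated starts was taken from RefSeq (GRCh38.p14), where 6 of the 8 genes had an entry. ABCC1 and ABCC3 had none. The 250 bases before the single start of ABCC4, an abundant member, are printed beside those before both starts of ABCB1, the scarcest, with CG pairs in capitals.
ABCC4 (chr13:95301452-95301701, minus strand): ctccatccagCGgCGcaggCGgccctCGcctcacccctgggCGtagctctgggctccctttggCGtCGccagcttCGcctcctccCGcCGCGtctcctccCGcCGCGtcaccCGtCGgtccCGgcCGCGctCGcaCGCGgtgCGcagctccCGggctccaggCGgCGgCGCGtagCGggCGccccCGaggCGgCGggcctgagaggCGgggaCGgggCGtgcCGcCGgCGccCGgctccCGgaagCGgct
ABCB1 upstream start (chr7:87713296-87713545, minus strand): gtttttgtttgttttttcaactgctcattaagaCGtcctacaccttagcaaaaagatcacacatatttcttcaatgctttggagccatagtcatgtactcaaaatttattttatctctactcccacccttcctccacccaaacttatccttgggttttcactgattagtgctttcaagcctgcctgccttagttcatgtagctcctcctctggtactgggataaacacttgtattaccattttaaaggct
ABCB1 downstream start (chr7:87600885-87601134, minus strand): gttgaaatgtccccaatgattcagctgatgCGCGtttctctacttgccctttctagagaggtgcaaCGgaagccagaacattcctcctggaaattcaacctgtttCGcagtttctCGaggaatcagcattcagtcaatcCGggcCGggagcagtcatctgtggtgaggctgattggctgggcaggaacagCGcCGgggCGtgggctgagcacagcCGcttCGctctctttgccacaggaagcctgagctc
The ABCC4 sequence held 42 CG pairs, as many as or more than which 1.38% of 35116 promoters held. The ABCB1 sequences held 1 and 12, where the median promoter held 11. ABCC2, the scarcest MRP, held 1 and ABCC5 held 21. The 2 annotated starts of ABCC10 held 14 and 16, and the 5 of ABCG2 held 2 to 32. Which start these cells used was not measured, and the pairs are a description of the annotated sequence.

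ABCB1 (ENSG00000085563) encodes P-glycoprotein, a broad exporter of lipophilic drugs. It had 8, 14 and 14 reads in OGD/R libraries and 18, 11 and 10 reads in control libraries. These correspond to 0.233, 0.457 and 0.417 CPM in OGD/R libraries and 0.551, 0.328 and 0.304 CPM in control libraries. The groups overlapped, and the sample with most reads and the sample with fewest were both numbered 1. Summed over a group, the 36 reads after OGD/R had an exact Poisson 95% interval of 25.2 to 49.8, and the 39 reads of the controls one of 27.7 to 53.3. These intervals cover counting error only. The log2 fold change was −0.10 ± 0.55 (SE), with an adjusted p of 0.938 and a 95% interval of −1.21 to 1.02. Changes of up to about 2-fold in either direction lie within this interval and were thus not excluded. The sign turned without control replicate 1 (0.22) and without OGD/R replicate 1 (0.15).

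Every gene of the table has 10 or more reads in some 3 libraries, and ABCB1 lies near that lower edge. Of all genes with a known transcript length, 1.06% had a lower level per kb. ABCB1 is also the member with the closest relative: 2.52% of the 50-base windows of its longest transcript occur in another gene, ABCB4, a phospholipid exporter of liver. ABCB4 was not analysed here, having no row. The longest run that both transcripts share is 122 bases, within the coding sequence (bases 3950 to 4071 of ENST00000622132 in GENCODE 29). It is printed because a read lying wholly within it matches both genes, which weighs most where reads are few. How such reads were treated is not stated.
ABCB1 and ABCB4 shared run: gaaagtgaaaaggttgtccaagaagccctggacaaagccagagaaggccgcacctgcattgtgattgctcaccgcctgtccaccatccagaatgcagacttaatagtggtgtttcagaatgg

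ABCG2 (ENSG00000118777), whose product exports sulfate conjugates, urate and many drugs, had 29, 32 and 22 reads in OGD/R libraries and 20, 43 and 14 reads in control libraries. Its levels were 0.846, 1.05 and 0.656 CPM in OGD/R libraries and 0.612, 1.28 and 0.425 CPM in control libraries. All 3 OGD/R values lay inside the range of the controls, and the control library numbered 2 was the highest of the 6. The log2 fold change was 0.13 ± 0.42 (SE), with an adjusted p of 0.887 and a 95% interval of −0.72 to 0.98. Without control replicate 2 it was 0.71 (adjusted p 0.379), and its sign turned without control replicate 1 (−0.01), control replicate 3 (−0.16) or OGD/R replicate 2 (−0.04). No 50-base window of its longest transcript was shared with another gene. Of all genes, 4.75% had a lower level per kb.

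ABCC2 (ENSG00000023839) encodes MRP2, which secretes bilirubin glucuronides and other conjugates into bile at the apical membrane of hepatocytes. It stood between the scarce pair and the abundant MRPs. Its levels were 5.13, 5.39 and 3.76 CPM in OGD/R libraries and 5.14, 4.20 and 3.89 CPM in control libraries. The groups overlapped, with the lowest value in OGD/R replicate 3. With a log2 fold change of 0.11 ± 0.18 (SE), the adjusted p was 0.751 and the 95% interval −0.26 to 0.48. The value was 0.01 without OGD/R replicate 2 and 0.25 without OGD/R replicate 3, the lowest and highest of the fits that left out 1 library.

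ABCC3 (ENSG00000108846) encodes MRP3, an exporter of glucuronides and bile acids that sits in the basolateral membrane of epithelial cells. It had 2908, 2294 and 2536 reads in OGD/R libraries and 3660, 3708 and 3854 reads in control libraries. Its levels were 84.8, 74.9 and 75.6 CPM in OGD/R libraries and 112, 110 and 117 CPM in control libraries. Every OGD/R value lay below every control value, as in 16.6% of all genes, and the smallest gap was wider than either group's own range. ABCC3 averaged 78.5 ± 5.52 CPM after OGD/R and 113 ± 3.50 CPM in controls (SD, n = 3 each). Its log2 fold change was −0.53 ± 0.05 (SE), a change of −30.7% with a 95% interval of −35.5% to −25.5% (edgeR adjusted p = 3.62e-11). By p-value it ranked 56 of the 17104 genes, and the median size of the log2 fold change among all called genes was 0.26. The call held under each of 17 alternative settings, with log2 fold changes of −0.59 to −0.44.

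**Figure D2:**
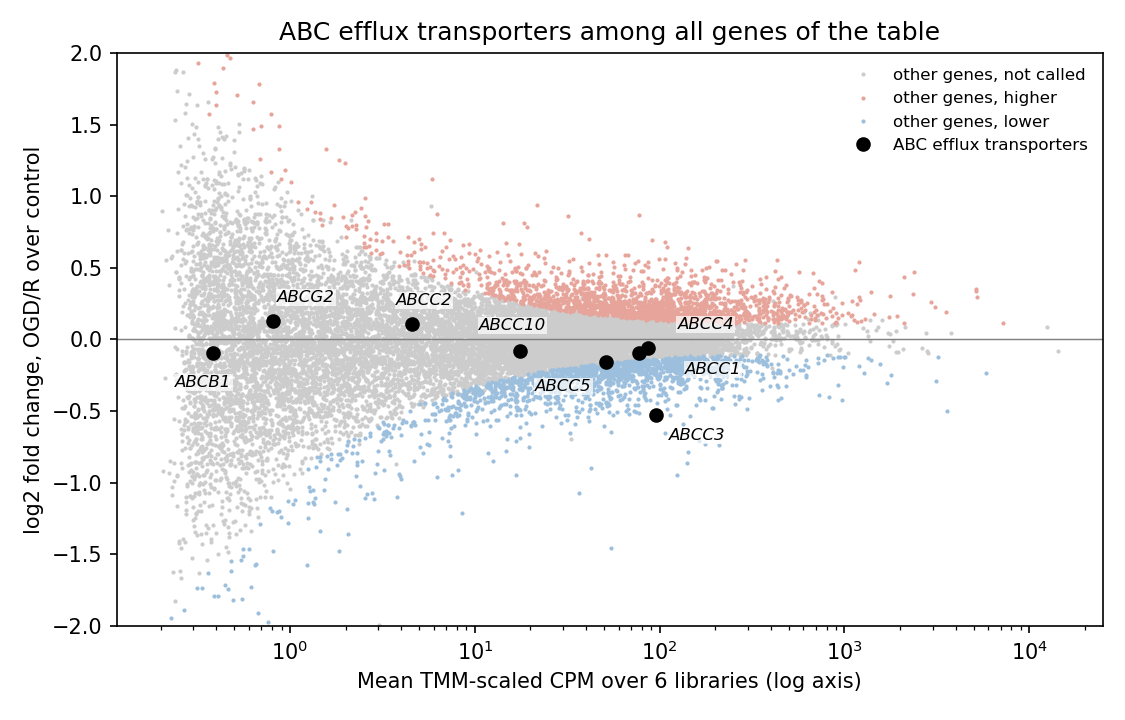
Log2 fold change of OGD/R over control against mean TMM-scaled CPM (log axis) for all genes of the table, with the 8 transporters as black points and other genes coloured by call; 18 genes lie outside the plotted range of −2 to 2. ABCC3 stands at −0.53, whereas the other 7 members, none of them called, lie between −0.16 and 0.13.

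Transcript length moved with the comparison and so bears on all 8 genes, whose longest transcripts run from 4479 to 6594 nucleotides. Across 10844 protein-coding genes with a mean above 4 CPM the fold change fell with length (Spearman's rho −0.36, across genes, which are not independent replicates), and the median length of those genes was 3846 nucleotides. With a smooth trend on length and GC content removed from each library, ABCC3 was at −0.44 ± 0.05 (SE) with an adjusted p of 2.31e-11. Of the 9 measured epithelial markers 4 rose (KRT8, KRT18, KRT7 and ELF3) and 0 fell, where 10.2% of all genes were called higher. Of the others, EPCAM was at 0.14, CDH1 at −0.28, CLDN4 at −0.25, ESRP1 at −0.18 and ESRP2 at −0.01. Among the 7 measured endothelial markers, CDH5 rose (0.81, edgeR adjusted p = 2.71e-07) and ROBO4 fell (−0.75, adjusted p = 0.00107). The part of these markers in the ABCC3 result was not tested.

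ABCC4 (ENSG00000125257) encodes MRP4, which exports cyclic nucleotides, prostaglandins and some nucleoside drugs and has been found in brain endothelium. Its levels were 82.3, 88.5 and 84.3 CPM in OGD/R libraries and 89.9, 84.97 and 90.7 CPM in control libraries. The groups overlapped. A log2 fold change of −0.06 ± 0.05 (SE, adjusted p = 0.489) was fitted. The 95% interval ran from −10.6% to 3.15%, so a fall as large as that of ABCC3 lies outside it.

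ABCC1 (ENSG00000103222) encodes MRP1, the main exporter of glutathione conjugates such as leukotriene C4. It had 72.2, 73.5 and 77.8 CPM in OGD/R libraries and 81.1, 81.3 and 76.5 CPM in control libraries. OGD/R replicate 3 lay above control replicate 3, so the groups overlapped. The log2 fold change was −0.10 ± 0.05 (SE, adjusted p = 0.226) with a 95% interval of −0.20 to 0.01. It was 0.01 with the length and GC trend removed, which turned its sign.

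ABCC5 (ENSG00000114770) encodes MRP5, another exporter of cyclic nucleotides and of nucleotide analogues. It came closest to the threshold among the members that did not pass. It had 50.1, 49.2 and 45.7 CPM in OGD/R libraries and 53.3, 54.4 and 54.3 CPM in control libraries. Every OGD/R value lay below every control value, yet the log2 fold change of −0.16 ± 0.06 (SE) had an edgeR adjusted p of 0.0586. The call changed with the method: the adjusted p was 0.0485 in DESeq2 (−0.16) and 0.0215 with total counts alone as the scale (−0.19). With the length and GC trend removed it was 0.406 (−0.07), within 0.0215 to 0.406 over all alternatives. ABCC5 and ABCC3 were the 2 members whose groups did not overlap, where 33% of all genes did not overlap in either direction.

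ABCC10 (ENSG00000124574) encodes MRP7, which exports taxanes and other lipophilic drugs. Its levels were 15.8, 17.96 and 17.7 CPM in OGD/R libraries and 19.4, 17.9 and 17.2 CPM in control libraries. The groups overlapped. Its log2 fold change was −0.08 ± 0.09 (SE, adjusted p = 0.614), with a 95% interval of −0.27 to 0.11, and −0.01 with the length and GC trend removed. In its exons 0.977% of the bases overlap another gene, against 0 in the other 7 members.

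**Figure D3:**
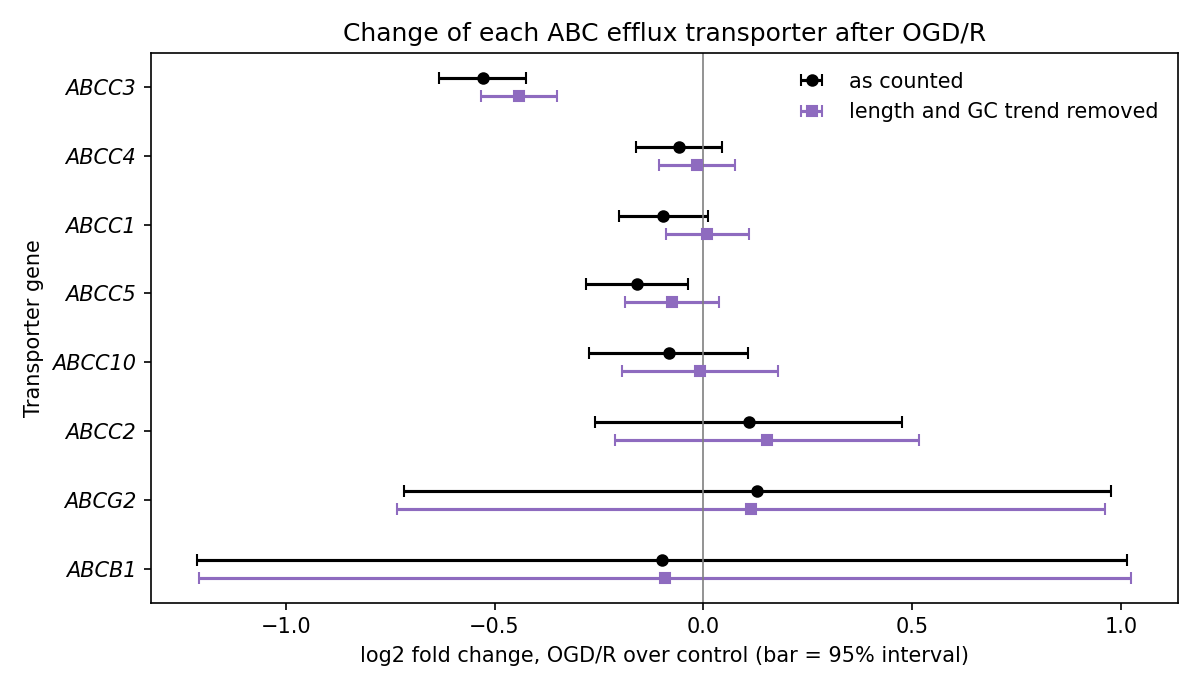
Log2 fold change of OGD/R over control for each transporter, with its 95% interval, as counted (black circles) and with the length and GC trend removed (purple squares). The intervals of ABCC3 lie wholly below 0 in both forms, that of ABCC5 only as counted, and those of ABCG2 and ABCB1 are the widest.

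Because reads of genes in one library share its scaling, the counts of ABCC3 were also divided by those of ABCC1, ABCC4, ABCC5 and ABCC10, the other MRP genes above 5 CPM on average. The ratio of ABCC3 to ABCC4 reads was 1.03, 0.846 and 0.897 in OGD/R libraries and 1.25, 1.30 and 1.29 in control libraries. All 3 OGD/R ratios lay below all control ratios, and ABCC4 took more reads than ABCC3 in 2 OGD/R libraries and in 0 control libraries. The ratio to ABCC1 averaged 1.06 ± 0.11 in OGD/R libraries and 1.42 ± 0.09 in control libraries (SD, n = 3 each). Each of the 4 ratios computed separated the groups without overlap. All 4 have as numerator ABCC3, the member called in these same libraries. They therefore restate its fall and are not separate evidence for it. The exact two-sided permutation test gave p = 0.1 for each, which is the smallest p that 3 against 3 libraries allow, and 0.1 after Benjamini-Hochberg adjustment over the 4. These ratios do not depend on the scaling, but they keep any trend on length or GC content.

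**Figure D4:**
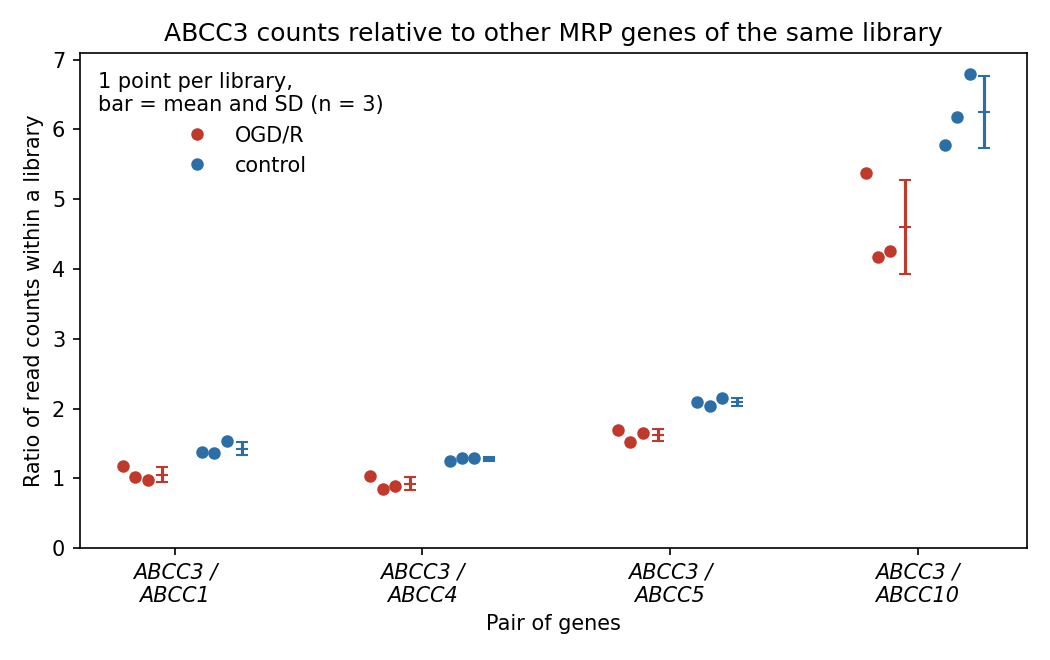
Ratio of ABCC3 read counts to those of ABCC1, ABCC4, ABCC5 and ABCC10 of the same library, with 1 point per library and mean ± SD of 3 libraries beside the points. In each pair the 3 OGD/R points lie below the 3 control points, for example 0.846 to 1.03 against 1.25 to 1.30 for ABCC4.

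Between genes, levels were compared per kb of the longest annotated transcript. In OGD/R libraries ABCC4 averaged 13.8 ± 0.51 CPM per kb and ABCC3 13.7 ± 0.97 CPM per kb, and their ranges overlapped. In control libraries ABCC3 led with 19.8 ± 0.61 CPM per kb, followed by ABCC4 with 14.3 ± 0.50, and their ranges did not overlap (SD, n = 3). Below this pair both groups had the same order by this length. ABCC1 was at 11.3 ± 0.44 CPM per kb after OGD/R and 12.1 ± 0.41 in controls, and ABCC5 at 8.17 ± 0.39 after OGD/R and 9.12 ± 0.10 in controls. ABCC10 was at 3.37 ± 0.24 CPM per kb after OGD/R and 3.57 ± 0.22 in controls, and ABCC2 at 0.820 ± 0.151 after OGD/R and 0.760 ± 0.112 in controls. ABCG2 had 0.190 ± 0.043 CPM per kb after OGD/R and 0.173 ± 0.10 in controls, above ABCB1 at 0.0773 ± 0.0250 after OGD/R and 0.0825 ± 0.0285 in controls. Neighbours in this order did not overlap, except ABCC4 and ABCC3 after OGD/R, and ABCG2 and ABCB1 in controls. Per kb of coding sequence, ABCC3 was at 17.1 ± 1.20 and ABCC4 at 21.4 ± 0.80 after OGD/R, with ranges apart, and ABCC3 at 24.7 ± 0.76 and ABCC4 at 22.3 ± 0.78 in controls. Both lengths thus put the same gene of this pair higher in each group, and they differ in whether the OGD/R ranges overlap. Per kb of the median transcript length, averaged over both groups, ABCC3 was at 122 CPM per kb and ABCC4 at 30.6, a far wider gap than by the other lengths. The standing of ABCC4 beside ABCC3 thus depends on the length used. By the median length ABCC1 (56.2) also stood above ABCC4, and ABCB1 (0.485) above ABCG2 (0.319).

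The summed level of the 8 genes was 51.4 ± 0.57 CPM per kb after OGD/R and 59.9 ± 0.66 in controls (SD, n = 3 each), a description without a test. This sum and the shares in it use the longest transcript, and another length would give other shares. The share of ABCC3 in that sum was 26.7% ± 1.73 after OGD/R and 33.0% ± 0.88 in controls. The share of ABCC4 was 26.8% ± 1.01 after OGD/R and 23.9% ± 0.60 in controls.

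The profile of ABCC3 over the 6 libraries was compared with that of 11024 other genes of at least 5 CPM, each centred on its own mean log2 CPM. The nearest was CPNE7, a copine (calcium-dependent membrane-binding protein), at a root mean square difference of 0.026 log2 units. It averaged 61.7 ± 4.11 CPM after OGD/R and 87.8 ± 5.24 CPM in controls. The next were CUL9, a cullin family member, at 0.028 and SH3PXD2A, a scaffold of invadopodia, at 0.044. These 3 genes were chosen for their likeness, which carries no test.

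The other genes of the ABC superfamily were measured as a list of 40, of which 24 had a row. Of the 24, 5 rose and 3 fell, with a median log2 fold change of 0.04 and 19.7% of all genes called as the background. For this list and those below, that background is not matched for level. The median level after OGD/R was 44.0 CPM in this list and 17.3 CPM over all genes, of which 3091 averaged under 1 CPM. How level bears on the share called was not tested. The 3 that fell were ABCA3, ABCA1 and ABCA2. ABCA3, the surfactant lipid transporter of lung, averaged 82.3 ± 5.95 CPM after OGD/R and 112 ± 6.76 CPM in controls (−0.44 ± 0.05 SE, edgeR adjusted p = 9.12e-09). ABCA1, which loads cholesterol onto apolipoprotein A-I, averaged 12.1 ± 0.49 CPM after OGD/R and 17.6 ± 0.71 CPM in controls (−0.54 ± 0.10, adjusted p = 5.91e-05). ABCA2, a lipid transporter of endolysosomes, was at −0.27 ± 0.04 (adjusted p = 3.16e-06), and at −0.10 with an adjusted p of 0.0547 once the length and GC trend was removed. Of those that rose, TAP1, a subunit of the antigen peptide transporter, averaged 74.9 ± 3.80 CPM after OGD/R and 61.8 ± 2.50 CPM in controls (0.28 ± 0.06, adjusted p = 0.000195). Its partner TAP2 was at 0.01 (adjusted p = 0.958).

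ABCE1, a ribosome recycling factor that transports nothing, rose by 0.16 on the log2 scale (edgeR adjusted p = 0.0221). Its adjusted p was 0.200 without control replicate 3, 0.0724, 0.0508 and 0.0671 without OGD/R replicates 1, 2 and 3, and 0.0847 with the length and GC trend removed, within 0.00433 to 0.200 over all alternatives. The number of ABC genes that rose was 3 without any 1 of the controls, 2 without OGD/R replicate 1 or 2 and 1 without OGD/R replicate 3, and 1 with total counts alone as the scale. ABCC6 and ABCG1 did not pass, with log2 fold changes of −0.10 ± 0.23 and −0.16 ± 0.57 (SE).

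Regulators known to act on efflux genes were measured as a list of 23, of which 22 had a row, 2 rising and 7 falling with a median of −0.07. These make 40.9% called, where 10.2% of all genes were called higher, 9.48% lower and 19.7% in either direction. The median level after OGD/R was 70.2 CPM in the list and 17.3 CPM over all genes. The pregnane X receptor gene NR1I2, a drug sensor that induces ABCB1 in liver and gut, was not analysed here. EPAS1, the hypoxia-inducible factor HIF-2-alpha, averaged 83.5 ± 6.64 CPM after OGD/R and 131 ± 0.47 CPM in controls (−0.65 ± 0.05 SE, edgeR adjusted p = 3.08e-14). HIF1A, the gene of the related HIF-1-alpha, averaged 185 ± 3.71 CPM after OGD/R and 185 ± 9.17 CPM in controls (−0.00 ± 0.04, adjusted p = 0.980). PPARA, a fatty acid receptor, fell (−0.39 ± 0.07), as did FOXO1, a forkhead factor (−0.56 ± 0.14). VDR, the vitamin D receptor, fell (−0.21 ± 0.05), with an adjusted p of 0.0684 without control replicate 3. YBX1, a nucleic acid binding protein linked to ABCB1 in drug-resistant cells, rose by 0.17, and was at 0.07 (adjusted p 0.127) with the length and GC trend removed.

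The receptor AHR, a xenobiotic sensor, was at −0.15 ± 0.07 (SE, edgeR adjusted p = 0.146), and passed without control replicate 3 (−0.23, adjusted p 0.0337). NFE2L2, which encodes the antioxidant regulator NRF2, was at 0.11 ± 0.05 (adjusted p = 0.116), and passed without control replicate 1 (0.14, adjusted p 0.0444). The number of regulators that fell was 4 without control replicate 2, control replicate 3 or OGD/R replicate 2. The number that rose was 1 without control replicate 3 or OGD/R replicate 1, 3 without control replicate 1, and 1 with the length and GC trend removed.

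Genes that make the conjugates carried by the MRPs were measured as a list of 31, of which 27 had a row. Of these 9 rose and 1 fell (37.0% called, against 19.7% of all genes), with a median of 0.10. The median level after OGD/R was 28.2 CPM in the list and 17.3 CPM over all genes. GSTO1, an omega-class glutathione transferase, averaged 134 ± 3.50 CPM after OGD/R and 103 ± 7.97 CPM in controls (0.38 ± 0.05 SE, edgeR adjusted p = 4.28e-08), and was at 0.20 with the length and GC trend removed. GSTM3, a mu-class transferase, rose by 0.59 ± 0.11, and UGT2B7, a glucuronosyltransferase, by 1.33 ± 0.30. UGT2B7 averaged 2.24 ± 0.32 CPM after OGD/R and 0.890 ± 0.281 CPM in controls. Both belong to families of related genes, and how far reads are shared among these was not measured here. TPMT, which methylates thiopurines, rose by 0.34, and the quinone reductase NQO1 by 0.16. NQO1 had an adjusted p of 0.0799 without OGD/R replicate 2, where 5 genes of the list rose in all. The number that fell was 0 without control replicate 1 or 3 or OGD/R replicate 1 or 3, and 3 with the length and GC trend removed.

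Solute carriers of drugs, nucleosides and organic ions are labelled uptake transporters here, whichever way a member carries its substrate. They were measured as a list of 29, of which 22 had a row. Of these 2 rose and 1 fell (13.6% called, against 19.7% of all genes), with a median of −0.03. The median level after OGD/R was 12.25 CPM in the list and 17.3 CPM over all genes. SLC22A18, an organic cation transporter-like protein, averaged 42.4 ± 4.18 CPM after OGD/R and 56.7 ± 3.45 CPM in controls (−0.42 ± 0.07 SE, edgeR adjusted p = 4.09e-06). SLC29A2, an equilibrative nucleoside transporter, averaged 24.6 ± 1.37 CPM after OGD/R and 17.9 ± 0.81 CPM in controls (0.46 ± 0.09, adjusted p = 7.75e-05). SLC29A4, a monoamine and organic cation transporter of the same family, rose by 0.35, with groups that overlapped. Without OGD/R replicate 1 its adjusted p was 0.0566, leaving 1 gene that rose.

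Proteins that hold or move efflux transporters at the membrane are labelled membrane anchors here, together with some kinases and partner proteins. They were measured as a list of 18, each with a row. Of these 7 rose and 2 fell (50% called, against 19.7% of all genes), with a median of 0.04. The 2 that fell were kinase genes. The median level after OGD/R was 95.6 CPM in the list and 17.3 CPM over all genes. RAB11A, a small GTPase of recycling endosomes, averaged 249 ± 5.51 CPM after OGD/R and 192 ± 2.55 CPM in controls (0.37 ± 0.04 SE, edgeR adjusted p = 8.44e-10). CAV1 and CAVIN1, structural proteins of caveolae, rose by 0.26 ± 0.04 and 0.24 ± 0.04. MSN, which encodes moesin, a linker of membrane proteins to actin, rose by 0.20 ± 0.04. PRKCE, a protein kinase C gene, averaged 26.3 ± 0.96 CPM after OGD/R and 37.8 ± 0.56 CPM in controls (−0.53 ± 0.07, adjusted p = 1.87e-07).

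**Figure D5:**
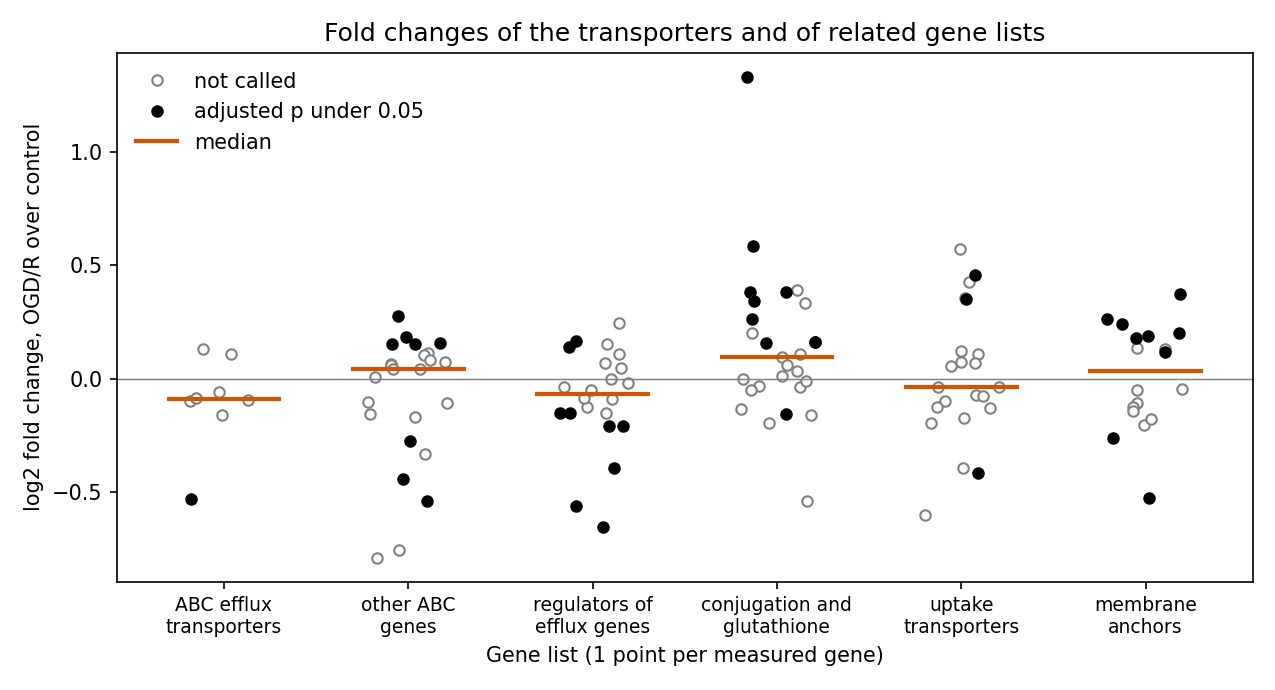
Log2 fold change of OGD/R over control for each measured gene of the transporter family and of 5 related lists, filled where the adjusted p was under 0.05, with the list's median as an orange bar. The family has 1 filled point of 8, ABCC3 at −0.53. Filled are 8 of 24 other ABC genes, 9 of 22 regulators and 10 of 27 conjugation genes. Among uptake transporters 3 of 22 are filled and among membrane anchors 9 of 18, where 19.7% of all genes were called.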

How the data were processed

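Per the labels, the 6 libraries were prepared from total RNA using NEBNext Ultra reagents. The authors deposited raw read counts for each human Ensembl gene. Trimmomatic, HISAT2, SAMtools, featureCounts and edgeR were used by the authors, per the submitters' processing notes. These notes name GRCm38, a mouse build, so the build behind the counts is uncertain. Strand setting and treatment of reads matching several genes are not given in the sources used here. No gene of the table falls below 10 counts in its third-highest library, and a filter before deposit is not stated.

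Groups and replicate numbers come from the sample titles. Counts were TMM-normalised and tested over all 17104 genes with edgeR 4.0.16 in R 4.3.3 (robust quasi-likelihood test, two-sided, Benjamini-Hochberg adjustment, threshold 0.05). filterByExpr (minimum count 10) removed 0 genes, and the common biological coefficient of variation was 6.26%. Standard errors come from the fold change and the F statistic. Symbols, transcript lengths, GC content and shared 50-base windows come from GENCODE 29. Alternatives were other scalings, DESeq2 1.42.0, limma-voom (limma 3.58.1), other filters, a replicate block, a length and GC trend (mgcv 1.9.3, fitted on 10859 genes, with length known for 96.6% of all), and leaving out each library. The statistical scripts were tested on simulated data.

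The members and lists were chosen with earlier results of these data known. From each list the text names up to 5 called genes with the smallest p and some genes fixed by name, of which 1 is not reported here. Library pairs differed by 4.07 to 7.43 within groups and 15.97 to 23.5 across groups (chi-square per degree of freedom), so none was a duplicate.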

Additional observations from a re-analysis of the deposited data

How the results depend on the processing

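ABCC3 was called lower under all 17 alternatives run, with adjusted p from 1.01e-20 to 2.87e-07. The number of transporters called lower was 2 with DESeq2 and 2 with total counts alone, where ABCC5 passed (−0.16 and −0.19). Leaving out 1 library gave ABCB1 values of −0.27 to 0.22 and ABCG2 values of −0.16 to 0.71. ABCC1 turned to 0.0096 with the length and GC correction and to 0.0100 with the replicate block added. ABCB1 and ABCG2 have no adjusted p in DESeq2, and neither has a value when 1 CPM or more in 3 libraries is required. Omitting the filter removed no gene and so shows nothing about filtering.

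Same-numbered libraries had correlations of deviations of −0.013, 0.077 and −0.047, and libraries of different number −0.067 to 0.084. Not every library correlated best with its own number. No pairing by number was thus visible, but weak correlations within groups of 3 cannot exclude that same-numbered samples were handled together. With the replicate number as a block, 1827 genes were higher and 1702 lower, ABCC3 was at −0.53, and 5 other ABC genes fell.

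Over all genes, leaving out 1 library gave 1293 to 1840 higher and 1079 to 1527 lower, the lowest count of lower genes being that without control replicate 3. The higher share of called genes was 39.7% with total counts alone and 51.9% with TMM. In the same leave-one-out fits, 1 to 3 other ABC genes rose. Among regulators 1 to 3 rose and 4 to 6 fell, among conjugation genes 5 to 8 rose and 0 to 1 fell, and among uptake transporters 1 to 3 rose. With total counts alone, 1 other ABC gene rose, 3 conjugation genes fell and 2 uptake transporters fell. In DESeq2, 2 conjugation genes fell. With the length and GC correction, with or without the block, 1 regulator rose and 3 conjugation genes fell.

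Averaged over both groups, CPM per kb of median transcript length was 122 for ABCC3, 56.2 for ABCC1, 30.6 for ABCC4, 27.7 for ABCC5, 23.4 for ABCC10, 4.05 for ABCC2, 0.485 for ABCB1 and 0.319 for ABCG2. Per kb of coding length, an alternative chosen after seeing the data, it was 21.8 for ABCC4, 20.9 for ABCC3, 16.8 for ABCC1, 11.9 for ABCC5, 3.95 for ABCC10, 0.989 for ABCC2 and 0.413 for ABCG2. Per kb of the longest transcript it was 16.8, 14.1, 11.7 and 8.64 for ABCC3, ABCC4, ABCC1 and ABCC5. Levels by RefSeq protein length were not run, because no protein table was used here. Depth limits ABCB1 and ABCG2 most, whose intervals span about 2-fold in either direction.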
